A study of Rattus norvegicus with 10 samples.

Results

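The transcripts described here were 6 Ensembl-annotated rat transcripts of the processed pseudogene biotype, taken from the study's list of the 20 noncoding transcripts that differed most between the hemispheres after stroke. They were AABR06026863.1 (ENSRNOT00000044465), Rn50_15_0083.1 (ENSRNOT00000011480), AABR06035321.1 (ENSRNOT00000049520), AABR06005287.1 (ENSRNOT00000032154), AABR06029867.1 (ENSRNOT00000032198) and AABR06107883.1 (ENSRNOT00000041969), with symbols and biotype as the study's list gives them. They made up 6 of the 32166 transcripts in the deposited table, and all 6 passed the limit of a mean FPKM (fragments per kilobase of exon, scaled to library size) of at least 0.1, as did 20936 transcripts in all. Because the study chose them by their p value for the difference between the hemispheres, that difference is given below as a description, with no test.

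A processed pseudogene is a copy of an mRNA that was reverse transcribed and inserted elsewhere in the genome, so that it lacks the introns of its parent gene and usually the promoter too. Some are transcribed and have been studied as noncoding RNAs. Their sequence can stay close to that of the parent mRNA and of other copies, and short reads from one can then map to another. None of the 6 names shows which mRNA was copied. The parent genes, the positions on the rn5 genome and the sequences of the 6 were not analysed here, so the division of reads between each transcript and near-identical copies remains uncertain for every value below.

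RNA sequencing libraries of brain tissue came from 5 male Sprague Dawley rats, named P45, P52, P61, P71 and P72, at 24 hours after transient middle cerebral artery occlusion (MCAO), a suture model of focal stroke in which blood flow is stopped and then restored. Each rat gave a left and a right library, 10 in all. The study took the tissue from the middle coronal slices of the brain, not from whole hemispheres. Both sides shared the anesthesia and the genotype, but the suture was placed through the arteries of a single side. The right side was taken as ischemic and the left as the paired nonischemic control from the study's drawing of the suture in the right artery and from the sign of the left/right ratio that it lists for TCONS_00068312, a transcript it describes as upregulated. Only its deficit scale, which names circling to the right, would go with the other side. The left side of an operated rat is not the brain of an unoperated one. In bulk tissue, more or fewer cells of a type cannot be told apart from more or less RNA per cell. The labelled tissue was not checked against brain markers, because the identifiers of the table were not paired with gene symbols.

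The table gives no read counts, and the study states mapped reads only as a mean and spread over its samples. The depth of each single library is therefore unknown, and no counting interval is given. From the commonest ratio of low values between libraries, the left libraries were estimated at 62.4% to 100% of the depth of the deepest library and the right ones at 58.6% to 79.0%, the right library being the less deep in 4 of 5 rats, and the part of depth in the differences below was not tested. When the libraries were clustered on all 20936 transcripts and the tree was divided in 2, 9 of the 10 lay with their own side, and the right library of P71 lay with the left ones. Among the 314 transcripts higher on the right by at least 2 on the log2 scale over the other 4 rats, 62.4% had their highest left value in P61, against 8.63% to 36.7% for the same measure in each other rat. The left library of P61 thus stood apart, and values without P61 or P71 are given beside the differences.

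All 6 pseudogene transcripts were higher on the right than on the left in 5 of 5 rats, which makes 30 of 30 differences above 0. Of all 20936 transcripts, 13.7% were higher on the right in every rat. The mean difference, right minus left on the scale of log2(FPKM + 0.1), lay between 0.44 for Rn50_15_0083.1 and 1.15 for AABR06035321.1, with a median of 0.78 over the 6, while over all transcripts tested the median was -0.01 and the quartiles were -0.26 and 0.30. For 4 of the 6 every right value lay above every left value, which 6.41% of all transcripts did. In a paired limma fit across all transcripts, 7.71% had a Benjamini-Hochberg adjusted p under 0.05, with 5.52% higher on the right, and the 6 were not counted against this share because their p in the same contrast placed them on the study's list. Since these differences chose the transcripts, nothing is read from the distance to the background. With the 4 rats other than P61 the 6 mean differences ran from 0.42 to 1.11, and with the 4 other than P71 from 0.43 to 1.21.

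**Figure D1:**
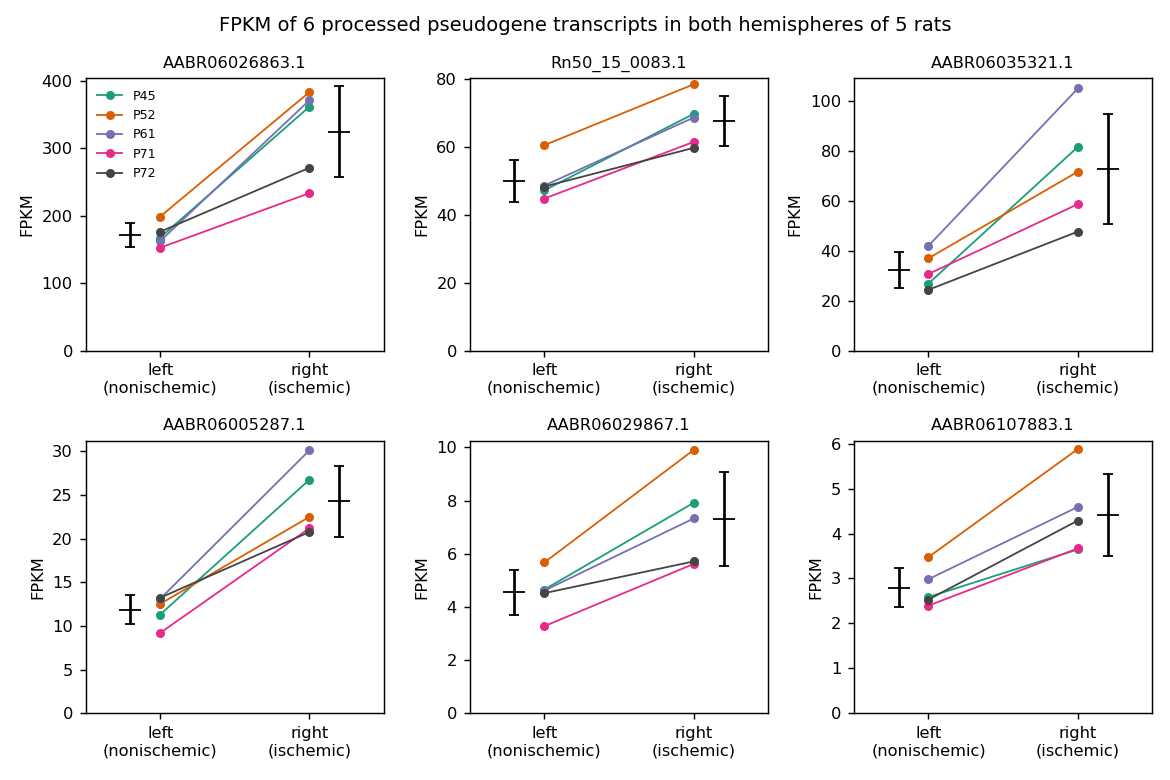
FPKM (vertical axes, starting at 0 and scaled per panel) of the 6 processed pseudogene transcripts in the left and right hemisphere, with 1 line per rat and black bars for the mean and SD of 5 rats. Every line climbs from left to right, and the sides overlap for Rn50_15_0083.1 and AABR06029867.1.

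AABR06026863.1 was the most abundant of the 6. On the left it was at 168 FPKM in P45, 199 in P52, 163 in P61, 153 in P71 and 176 in P72, a mean of 172 FPKM ± 17.5 (SD, n = 5). On the right it was at 362 FPKM in P45, 384 in P52, 372 in P61, 234 in P71 and 271 in P72, a mean of 324 FPKM ± 67.4 (SD, n = 5). The left values lay close together, whereas on the right P45, P52 and P61 were high and P71 and P72 low, and the sides did not overlap. The mean difference was 0.90 on the log2 scale (SD 0.27, n = 5). It was between 0.95 and 1.19 in P45, P52 and P61, and 0.61 and 0.62 in P71 and P72. By mean level it ranked 457 on the left and 158 on the right among the 20936 transcripts.

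Rn50_15_0083.1 had the second highest left level and the smallest difference. Its left values were 47.2 FPKM in P45, 60.5 in P52, 48.6 in P61, 44.8 in P71 and 48.3 in P72, with a mean of 49.9 FPKM ± 6.12 (SD, n = 5). Its right values were 69.7 FPKM in P45, 78.4 in P52, 68.6 in P61, 61.4 in P71 and 59.7 in P72, with a mean of 67.5 FPKM ± 7.45 (SD, n = 5). P52 was the highest on both sides, and its left value lay above the right value of P72, so that the sides overlapped although each rat was higher on the right. The right value was 1.24 to 1.48 times the left value of the same rat, and the mean log2 difference was 0.44 (SD 0.10, n = 5). An SD as small or smaller was found for 3.43% of all transcripts tested, and a small SD of the difference favors a low p in a paired test, by which the list was made.

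AABR06035321.1 had the largest difference and, on the log2 scale, the widest spread between rats on each side (SD 0.32 on the left and 0.44 on the right). On the left it was at 26.9 FPKM in P45, 37.0 in P52, 42.0 in P61, 30.7 in P71 and 24.4 in P72 (mean 32.2 ± 7.25, SD, n = 5). On the right it was at 81.6 FPKM in P45, 71.7 in P52, 105 in P61, 58.7 in P71 and 47.7 in P72 (mean 72.9 ± 22.0, SD, n = 5). P61 was the highest and P72 the lowest on both sides, and the sides did not overlap. The right value was 3.03 times the left one in P45 and 2.50 times in P61, but between 1.91 and 1.95 times in P52, P71 and P72. The mean log2 difference was 1.15 (SD 0.30, n = 5), and 4.80% of all transcripts had a mean difference at least as large. It was the only one of the 6 with its highest left value in P61, the left library that stood apart, and without P61 its mean difference was 1.11.

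AABR06005287.1 had left values of 11.3 FPKM in P45, 12.5 in P52, 13.1 in P61, 9.22 in P71 and 13.2 in P72, with a mean of 11.9 FPKM ± 1.67 (SD, n = 5). Its right values were 26.8 FPKM in P45, 22.5 in P52, 30.1 in P61, 21.2 in P71 and 20.8 in P72, with a mean of 24.3 FPKM ± 4.04 (SD, n = 5). The lowest right value was well above the highest left value, and both of these came from P72. The mean log2 difference was 1.02 (SD 0.26, n = 5). P45, P61 and P71 lay together between 1.19 and 1.23, P52 was at 0.84 and P72 at 0.65.

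AABR06029867.1 was found at a lower level, with left values of 4.65 FPKM in P45, 5.67 in P52, 4.62 in P61, 3.28 in P71 and 4.52 in P72 (mean 4.55 ± 0.851, SD, n = 5). On the right it was at 7.92 FPKM in P45, 9.90 in P52, 7.33 in P61, 5.62 in P71 and 5.71 in P72 (mean 7.30 ± 1.77, SD, n = 5). The left value of P52 was just above the right value of P71, and the sides therefore overlapped. The mean log2 difference was 0.66 (SD 0.19, n = 5). It lay between 0.66 and 0.79 in 4 rats and at 0.33 in P72.

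AABR06107883.1 had the lowest level of the 6. On the left it was at 2.59 FPKM in P45, 3.48 in P52, 2.98 in P61, 2.40 in P71 and 2.53 in P72 (mean 2.80 ± 0.439, SD, n = 5). On the right it was at 3.65 FPKM in P45, 5.88 in P52, 4.59 in P61, 3.67 in P71 and 4.29 in P72 (mean 4.41 ± 0.913, SD, n = 5). The sides did not overlap, but the lowest right value, that of P45, was only slightly above the highest left value, that of P52. The mean log2 difference was 0.63 (SD 0.11, n = 5), with the smallest in P45 (0.48) and the largest in P52 and P72 (both 0.74). On the log2(FPKM + 0.1) scale the difference of a transcript at this level is slightly understated, and with a pseudocount of 1 it was 0.50.

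**Figure D2:**
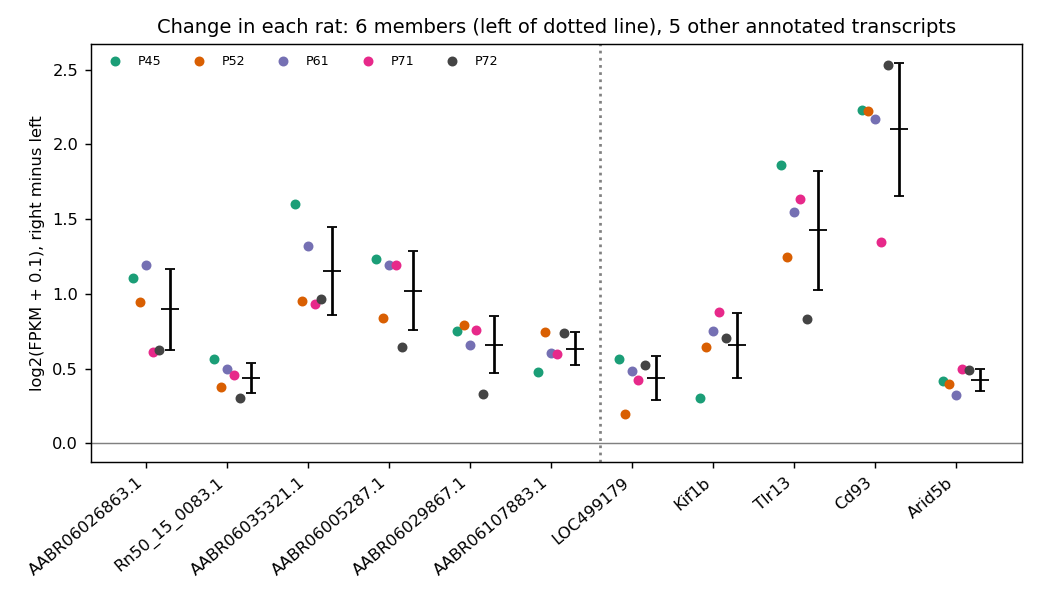
Difference between the hemispheres in each rat, on the scale of log2(FPKM + 0.1) and right minus left, for the 6 processed pseudogene transcripts (left of the dotted line) and the 5 other annotated transcripts of the same list, with the mean and SD of 5 rats in black. All points lie above 0, and the 6 run from 0.30 to 1.60.

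The rats did not keep 1 order across the 6 transcripts. The largest difference was seen in P45 for 3 of them (Rn50_15_0083.1, AABR06035321.1 and AABR06005287.1), in P52 for AABR06029867.1 and AABR06107883.1, and in P61 for AABR06026863.1. The smallest was seen in P72 for 3 of them, in P71 for AABR06026863.1 and AABR06035321.1, and in P45 for AABR06107883.1. The median difference over the 6 was 0.93 in P45, 0.82 in P52, 0.92 in P61, 0.69 in P71 and 0.63 in P72. Over all transcripts tested the median difference of a single rat lay between -0.01 and 0.04. With libraries centred on the median, the median of the 6 mean differences was 0.68, against 0.78 without. The part of a general shift between libraries in the differences was not tested.

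The levels of the 6 transcripts spanned a wide range. FPKM is normalized for transcript length, and on this scale the mean level of AABR06026863.1 was 61.4 times that of AABR06107883.1 on the left and 73.5 times on the right. The median left level of all transcripts tested was 6.45 FPKM, so that 4 of the 6 were above it and AABR06029867.1 and AABR06107883.1 below. On the left the order was AABR06026863.1, Rn50_15_0083.1, AABR06035321.1, AABR06005287.1, AABR06029867.1 and AABR06107883.1, and each of the 5 pairs of neighbours kept it in 5 of 5 rats. The smallest step was from Rn50_15_0083.1 to AABR06035321.1, a level difference of 0.65 on the log2 scale (SD 0.29, n = 5), and the steadiest was from AABR06026863.1 to Rn50_15_0083.1, at 1.78 (SD 0.06, n = 5). For every pair of neighbours the two-sided exact sign-flip permutation test gave p = 0.063, also after Benjamini-Hochberg adjustment over the 5 pairs, which is the smallest p that this test allows with 5 rats, so it cannot pass 0.05. The order was taken from the same left values, and the test therefore adds nothing to the count of rats.

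On the right the order was the same except between Rn50_15_0083.1 and AABR06035321.1. There the level of Rn50_15_0083.1 was the higher in 3 of 5 rats and that of AABR06035321.1 in P45 and P61, with a mean level difference of -0.06 on the log2 scale (SD 0.36, n = 5), which is well within the spread between rats. The other neighbours kept the left order in 5 of 5 rats on the right too.

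**Figure D3:**
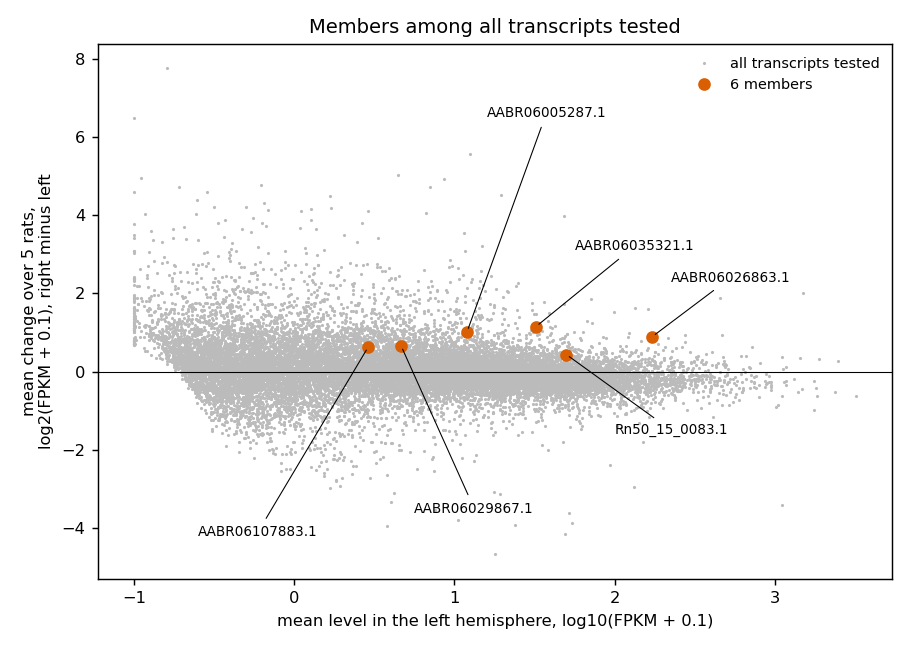
Mean difference over 5 rats, log2(FPKM + 0.1) and right minus left (vertical axis), against the mean left level, log10(FPKM + 0.1) (horizontal axis), for the 20936 transcripts tested (grey) and the 6 processed pseudogene transcripts (orange). The 6 lie between 0.44 and 1.15, at left levels from 2.80 to 172 FPKM.

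Each side was then examined on its own, as deviations from the mean of that side. The mean difference between the sides does not enter these deviations, but a paired p favors transcripts whose deviations agree between both sides of a rat, so the choice of the 6 bears on them and the shares of all transcripts are given as a description. P52 was the highest rat on the left and also on the right for 4 of the 6 transcripts, AABR06026863.1, Rn50_15_0083.1, AABR06029867.1 and AABR06107883.1. Of all transcripts tested, 7.83% had P52 highest on both sides. The deviations of the 6 in P52 had a median of 0.26 on the left, with 6 of 6 above 0, and of 0.24 on the right, with 5 of 6 above 0. P71 was the lowest left library for 5 of the 6, as for 16.0% of all transcripts. On the right P71 was lowest for 2 of the 6 and P72 for 3, against 25.1% and 20.8% of all transcripts. All 6 were below the side mean in P71 on both sides, with medians of -0.18 on the left and -0.25 on the right, and all 6 were also below it in P72 on the right, with a median of -0.22. The median deviation of all transcripts tested was between -0.01 and 0.01 in every library. Of all transcripts tested, 20.9% on the left and 22.1% on the right were at or above the P52 medians of the 6. At or above the P71 medians were 77.6% on the left and 73.9% on the right, and 72.8% were at or above the P72 right median. AABR06035321.1 followed another pattern, with P61 highest at 0.41 on the left and 0.58 on the right and P72 lowest at -0.37 and -0.56. AABR06005287.1 differed as well, with P72 highest on the left (0.17) and P61 on the right (0.33), and P52 at 0.09 and -0.09. P71 also had the right library that lay with the left ones, and the part of that in the low values of P71 was not tested.

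**Figure D4:**
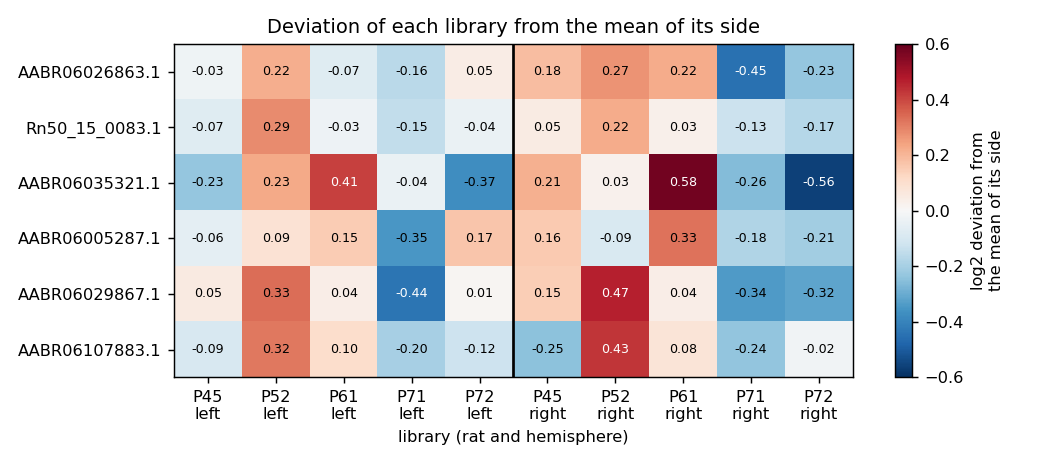
Deviation of each library from the mean of its side, in log2(FPKM + 0.1), for the 6 processed pseudogene transcripts (rows) in the 5 left and 5 right libraries (columns), red above and blue below the side mean. P52 is above the side mean in 11 of 12 cells and P71 below it in 12 of 12. The median deviation of all transcripts tested lay between -0.01 and 0.01 in every library.

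Over the 10 libraries the 6 transcripts varied together, with Pearson's r between 0.81 and 0.96 over the 15 pairs (median 0.90). These values hold the shared difference between the sides, by which the transcripts were chosen. With the mean of each side taken out, r lay between 0.21 and 0.91 (median 0.59). It was highest between Rn50_15_0083.1 and AABR06029867.1 (0.91), followed by AABR06026863.1 with AABR06029867.1 (0.86) and with Rn50_15_0083.1 (0.82). It was lowest between AABR06005287.1 and AABR06107883.1 (0.21), while AABR06035321.1 had r between 0.36 and 0.63 with the other 5. These are descriptions over 10 libraries of 5 rats that share rat, depth and, for the first range, side, and no p is given. The choice of the 6 by a paired p bears on the second range too, and no range for other pairs of transcripts is given beside it.

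**Figure D5:**
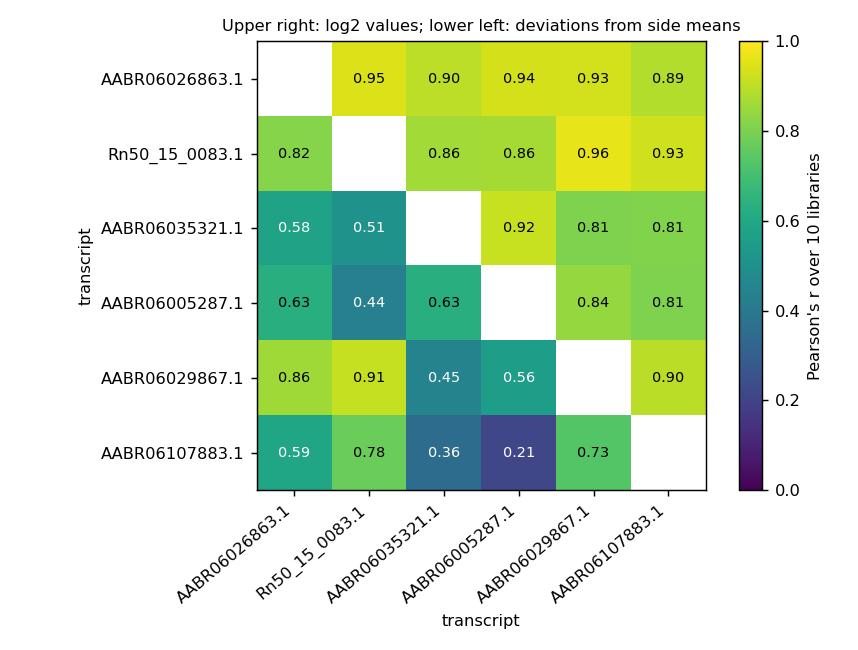
Pearson's r over 10 libraries for each pair of the 6 processed pseudogene transcripts, from log2(FPKM + 0.1) in the upper right and from deviations from side means in the lower left. Rn50_15_0083.1, AABR06026863.1 and AABR06029867.1 keep r of 0.82 to 0.91 with the side means taken out, where all 15 pairs run from 0.21 to 0.91.

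The transcripts most like each of the 6 were looked for among the 15882 with a mean FPKM of at least 1, by Pearson's r of log2(FPKM + 0.1) over the 10 libraries. The 2 nearest to each, 12 in all, had r between 0.96 and 0.99, and none of them was another of the 6. This r holds the difference between the sides, so that all 12 were higher on the right in 5 of 5 rats follows from the search. Their mean log2 differences ran from 0.26 to 1.88. The nearest transcripts depended on the measure, since 0 of the 12 were kept with Spearman's correlation and 2 with the side means taken out. The nearest to AABR06026863.1 was ENSRNOT00000075822 (r = 0.99), at 6.01 FPKM ± 0.724 on the left and 10.2 FPKM ± 1.58 on the right (SD, n = 5 each), and it was in place 10 with the side means taken out. The nearest to AABR06005287.1 was ENSRNOT00000010277 (r = 0.99), at 3.08 FPKM ± 0.577 on the left and 6.20 FPKM ± 1.35 on the right (SD, n = 5 each), and it was the only one of the 12 that was also the nearest with the side means taken out (r = 0.97), the others then being in places 2 to 86. Gene names for both are not given here. An r of at least 0.9 was shared with 524 transcripts for AABR06005287.1, 314 for AABR06026863.1, 242 for AABR06035321.1, 114 for Rn50_15_0083.1, 78 for AABR06107883.1 and 77 for AABR06029867.1. Among the 6 themselves, Rn50_15_0083.1 was the 4th nearest transcript to AABR06029867.1. The nearest of the 6 was further down for the others. It was in place 9 for Rn50_15_0083.1, 19 for AABR06107883.1, 63 for AABR06026863.1, 133 for AABR06035321.1 and 225 for AABR06005287.1.

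The same list of the study held 5 other Ensembl transcripts, and these were also higher on the right in 5 of 5 rats. LOC499179, the only other processed pseudogene among them, went from 12.9 FPKM ± 1.37 on the left to 17.5 FPKM ± 0.534 on the right (SD, n = 5 each), a mean log2 difference of 0.44 like that of Rn50_15_0083.1. The noncoding transcripts of Arid5b, which encodes a DNA-binding protein, and of Kif1b, which encodes a kinesin motor, had mean differences of 0.42 and 0.65. Those of Tlr13, an endosomal receptor of innate immunity, and of Cd93, a surface receptor of endothelial and myeloid cells, had mean differences of 1.42 and 2.10. On this scale both were larger than any of the 6 pseudogenes. The Tlr13 transcript was at a low level, with means of 0.617 FPKM on the left and 1.77 FPKM on the right. With a pseudocount of 1 its difference was 0.78. That was below AABR06035321.1 (1.13), AABR06005287.1 (0.97) and AABR06026863.1 (0.89) at the same setting, and above the rest of the 6. In the 5 other transcripts, as in the 6, the difference is what placed them on the list, and the 2 sets were not tested against each other.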

How the data were processed

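Total RNA of tissue from both sides of the middle coronal brain slices of 5 rats was sequenced. The authors aligned the reads to rn5 by TopHat and ran Cufflinks with the Ensembl annotation. They deposited the FPKM of 32166 transcripts in each of the 10 libraries, with replicates not pooled. Of these, 30242 have an Ensembl identifier and 1924 were assembled by the authors. The study assembled more transcripts than it deposited, and all shares given here refer to the deposited ones. Cufflinks divides reads among overlapping isoforms and, with the option the authors state, among multiply mapped positions, which bears on pseudogenes. From the deposited FPKM, log2(FPKM + 0.1) was computed for transcripts with a mean of at least 0.1. Differences were taken within each rat, since both sides come from 1 animal. Across all transcripts, the deviations from the side means of the left and right library of a rat had r between -0.13 and 0.18. The share of all transcripts called came from limma 3.58.1 in R 4.3.3 (lmFit, eBayes with a trend, the rat as a block, Benjamini-Hochberg), which called 1614 of 20936 (7.71%), 1155 of them (5.52%) higher on the right. The fit and the depth estimate were also run on simulated data. The simulation for depth left out the division of reads by Cufflinks, so it cannot show how accurate the depth estimate is here. Other values were computed with pandas 2.3.3, numpy 2.4.6 and scipy 1.17.1 under Python 3.11.15, and figures were drawn with matplotlib 3.10.9. The transcripts named were the 6, the other 5 Ensembl transcripts of the study's list and the 2 nearest to each of the 6, of which 2 identifiers are printed. The 6 and the lists were chosen with earlier results of these data known. Marker and gene lists by symbol were planned but not used here, since no table paired the identifiers with symbols. The list of assembled lncRNAs, which holds none of the 6, was not used. The libraries of a side come from separate rats.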

Additional observations from a re-analysis of the deposited data

Results flagged for a closer look

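The left, right and difference values of the 11 named transcripts made 33 groups of 5, of which 3 had a single rat whose gap to the next one, divided by the range of the group, exceeded Dixon's critical value of 0.71. Chance gives about 1 in 20 groups, or 1.65 of 33. For Rn50_15_0083.1 the left library of P52 was high (ratio 0.756, 60.5 FPKM against 44.8 to 48.6 FPKM in the others). P61 had the highest right value for the Tlr13 transcript (ratio 0.766) and the lowest for that of Arid5b (ratio 0.842).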

How the results depend on the processing

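The differences of the 6 transcripts stayed above 0 in every rat under the other pseudocounts and scalings and with any rat left out, and their median kept within the SD between rats. It was 0.78 as reported, between 0.68 and 0.84 under other pseudocounts and scalings, between 0.74 and 0.85 with each rat left out in turn, and 0.77 without P61 and P71, a choice made after seeing the data. Single transcripts were each held against the SD between rats of their own difference. Those of AABR06107883.1 (0.50) and the Tlr13 transcript (0.78) with a pseudocount of 1 moved by more than it. So did that of the Arid5b transcript (0.33) with libraries centred on the median. The 5 neighbours kept their left order in every rat in all of these settings. The number of transcripts called among all 20936, from which only the background share is used, was between 262 (without P45) and 1752 (without P72) with each rat left out (360 without P52, 380 without P61, 846 without P71), 128 without P61 and P71, and 982 without a trend. Without the replicate block by rat it was 2148. The share of the calls that were higher on the right was 71.6%, but 52.4% with libraries centred on the median, 81.7% after rescaling to TPM, 87.2% without a trend, between 64.9% (without P72) and 95.4% (without P45) with each rat left out, and 96.9% without P61 and P71. Of the 12 nearest transcripts, 0 were kept with Spearman's correlation, 2 with side means taken out and 10 with a pseudocount of 1. The cause of these moves was not tested. The depth of each library is known only in relative terms, and so no limit from read counts can be set on the lowest of the 6.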
